A study of Mus musculus with 10 samples.

Results

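The transforming growth factor beta (TGF-beta) pathway was examined through 10 genes: the ligands Tgfb1, Tgfb2 and Tgfb3, the receptors Tgfbr1 and Tgfbr2, the signal transducers Smad2, Smad3 and Smad4, and the inhibitors Smad7 and Skil. Members were the genes with these symbols in the annotation of the Affymetrix probe sets, and where a gene had several probe sets, the one of highest average signal stands for it. All 10 of 10 genes had a probe set, among 18193 genes with one in the table. Of the 10, 9 were among the 11472 genes tested, whose signal exceeded 4.43, the table's median, on 5 or more of the 10 arrays. Tgfb2 passed with 5 arrays above that level, Tgfb3 was above it on 4 arrays and was not tested, and the other 8 genes were above it on all 10.

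The cells were primary B-cell lymphoma cells taken from the lymph nodes of mice of the genotype Emu-myc;Suv39h1-/-, in which an immunoglobulin heavy chain enhancer drives the c-Myc oncogene in the B-cell lineage and the histone H3 lysine 9 methyltransferase Suv39h1 is deleted. All cells had been transduced with a retroviral Bcl2 (MSCVpuro), a protector against apoptosis, selected with puromycin and grown on irradiated NIH 3T3 mouse fibroblasts. The ADR group was treated in culture with 0.05 µg/ml Adriamycin (doxorubicin, a topoisomerase II poison that breaks DNA) for 5 days, and the untreated group was not. Each of 5 lymphomas gave 1 ADR array and 1 untreated array of total RNA, so that every comparison is paired within a lymphoma; every group carries the Suv39h1 deletion and Bcl2, and the ages of the animals are not given in the labels. Levels below are log2 array signals, changes are ADR minus untreated within a lymphoma on the log2 scale, and runs of 5 values follow the order lymphoma_5783, lymphoma_7890, lymphoma_9250, lymphoma_1032 and lymphoma_4936.

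TGF-beta ligands are secreted in a latent form and, once released, bind the type II receptor (Tgfbr2), which recruits and phosphorylates the type I receptor (Tgfbr1). The type I receptor phosphorylates Smad2 and Smad3, which enter the nucleus with Smad4 and act on target genes, among them Smad7 and Skil, whose products feed back on the pathway. In B cells the pathway is known for restraining proliferation, for promoting apoptosis and for the switch to IgA, and in senescent cells TGF-beta ligands are known as parts of the secretome.

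Array-wide facts bear on the values as follows. The ADR array of lymphoma_1032 had the lowest median signal, 4.15, where the other 9 had 4.43 to 4.50; over the tested genes alone its median was 7.16, and the others had 7.16 to 7.35. In this lymphoma 68.7% of all tested probe sets were lower with ADR, against 47.3% to 53.3% in the other lymphomas. The B-cell markers Cd79a, Cd79b, Ms4a1, Pax5, Ebf1, Cd22, Blnk, Vpreb3 and Pou2af1, 9 of 10 listed, had a mean log2 signal of 7.65 to 9.90 in ADR cells and of 8.14 to 10.08 in untreated cells, lowest in lymphoma_1032 in both. Macrophage markers, 18 of 19 listed, had a mean log2 signal of 7.32, 8.26, 5.06, 7.72 and 4.98 in ADR cells, against 7.09, 8.09, 5.18, 7.04 and 4.92 in untreated cells. Fibroblast markers, 22 of 24 listed and a measure of the feeder cells too, had 7.12, 5.37, 5.32, 6.53 and 5.36 in ADR cells, against 6.48, 5.45, 5.42, 6.04 and 5.16 in untreated cells. Lum and Fap, of the fibroblast list, were below the table median on all arrays. At 1 probe set per gene, untested genes included, 14 macrophage markers were higher and 4 lower on average with ADR. By the same measure 16 fibroblast markers were higher and 6 lower, and 0 of those tested in these lists passed the threshold. The 4 lower macrophage markers, C1qa, C1qb, C1qc and Mrc1, did not pass the filter on low signals, while the 13 tested were all higher. In lymphoma_5783 these 4 had changes of -2.91, -2.40, -1.30 and -2.94. The differences of both list means were largest in lymphoma_5783 and lymphoma_1032. In lymphoma_1032 the mean of 9 neutrophil markers was 7.01 in ADR cells and 6.06 in untreated cells, and S100a9, Mpo, Camp and Ngp among them were below the table median on all arrays. In lymphoma_5783 the mean of 6 megakaryocyte and platelet markers was 5.16 in ADR cells and 5.99 in untreated cells. Pf4, which was not tested, had a change of -3.61 there. Ppbp, not tested either and below the table median on all arrays, had one of 0.86. Itga2b, Itgb3, Gp1bb and Gp9 had -0.19, -0.99, -0.74 and -0.29. The part of these lists in the results below was not tested. In such bulk RNA, fewer cells of a type and less RNA per cell cannot be told apart.

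None of the 9 tested members passed the threshold, and each mean change was smaller than the SD of that gene's changes over the 5 lymphomas. In the paired limma fit 0 of 9 members had an adjusted p below 0.05, where 0% of the 11472 genes tested did; at an unadjusted p below 0.05 there were 0 of 9 members, where 8.48% of all tested genes did. Mean changes of the members ran from -0.42 for Tgfb2 to 0.31 for Tgfbr2, with adjusted p between 0.63 and 0.974. Of the 9 members, 4 were higher and 5 lower on average in ADR cells, where 44.8% and 55.2% of all tested genes were. The median change of the 9 members was -0.02, and that of all genes tested was -0.024. No member had 1 sign of change in all 5 lymphomas (0 of 9, where 9.49% of all tested genes did), and Tgfb1, Tgfbr2 and Smad7, 3 of 9, had 1 sign in at least 4 (46.2% of all tested genes). ADR and untreated signals did not overlap for 0 of 9 members, where 0.357% of all tested genes had groups that did not. The 95% interval of the mean change excluded a 2-fold change in either direction for 8 of 9 members, Tgfb2 being the exception. These p-values do not show that the members were unchanged, and exact two-sided permutation tests that flip the sign of each lymphoma's change, whose smallest possible p is 0.0625, gave p between 0.1875 and 0.875 for the 10 members, with a smallest Benjamini-Hochberg adjusted p of 0.859 over these 10 tests.

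**Figure D1:**
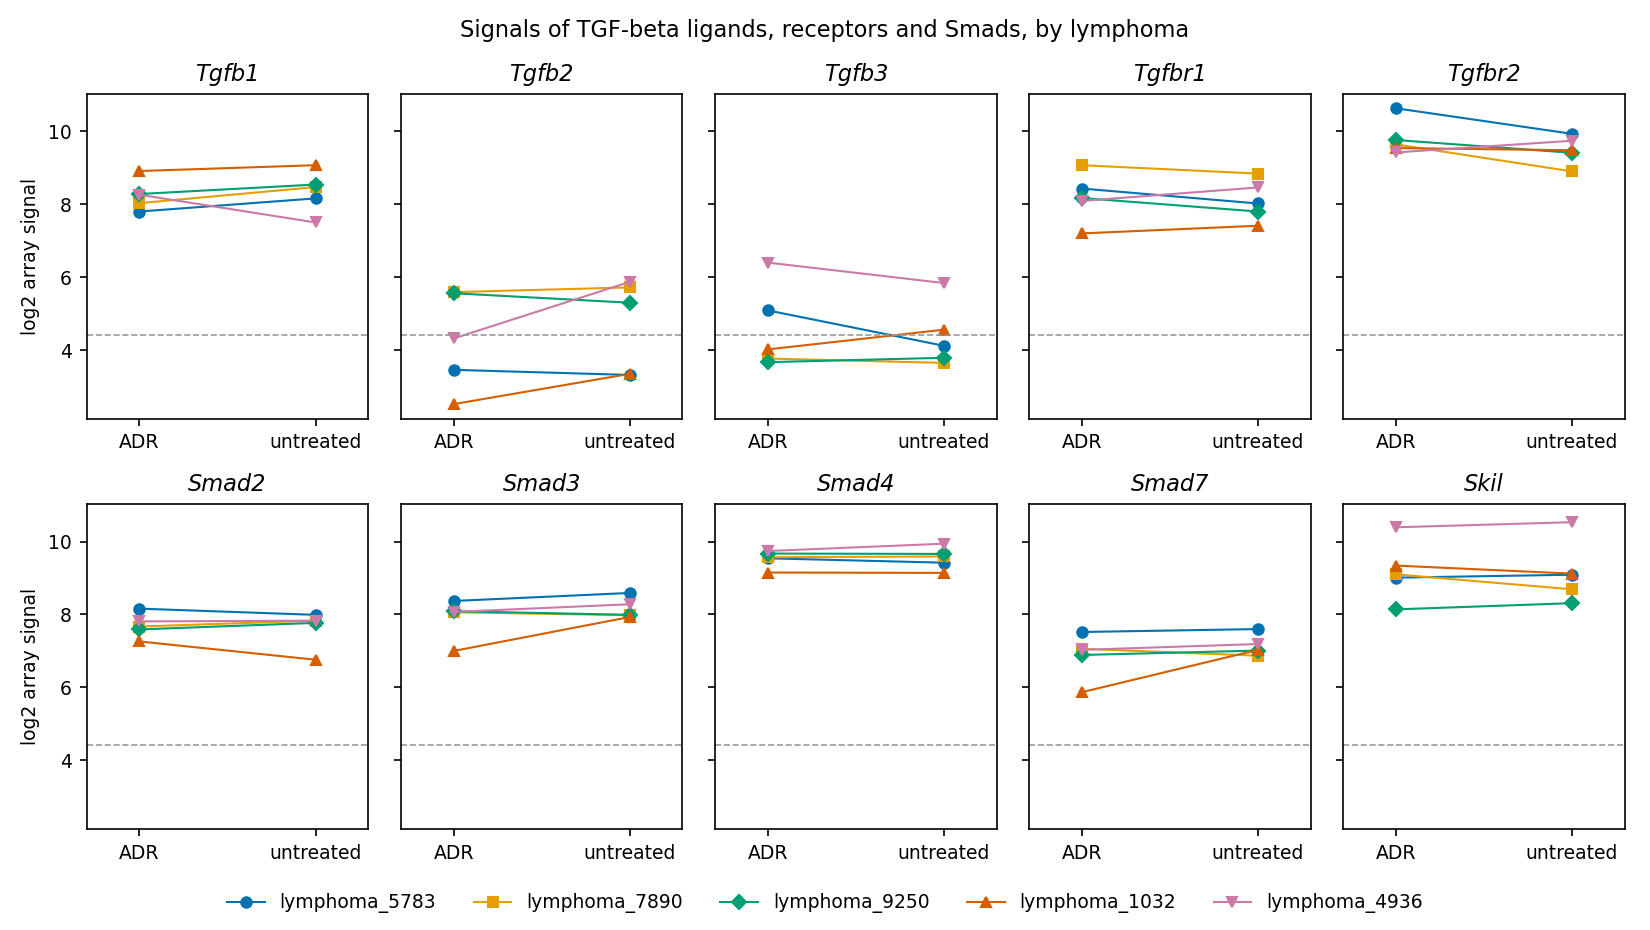
Log2 array signals of the 10 genes (y axis, log2 array signal) in ADR and untreated cells, with 1 line per lymphoma joining its 2 arrays; the dashed line is the median of the whole table, 4.43. Tgfb2 lies above that line on 5 of 10 arrays and Tgfb3 on 4 of 10, and the other genes on all 10; levels of different genes come from different probes and are not comparable.

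Promoters of Tgfb1, Tgfb2 and Tgfbr2 are shown because Tgfb1 and Tgfbr2 had changes of opposite sign in each lymphoma and Tgfb2 differed most of the 10 genes between lymphomas. The sequences are from RefSeq (GRCm38.p6), 5′ to 3′ on the gene's strand, and hold 250 bases before and 50 bases after an annotated start; 5 of the 10 genes matched an entry of that table. They lie at chr7:25686752-25687051 (plus strand) for Tgfb1, chr1:186705940-186706239 (minus strand) for Tgfb2, at a start inside the gene's longest annotated span, and chr9:116175314-116175613 (minus strand) for Tgfbr2. Capitals mark matches, on either strand, to the Smad box CAGAC, the palindromic Smad element GTCTAGAC, the AP-1 motif TGANTCA, the E-box CACGTG bound by Myc and Max, and the GC box GGGCGG bound by Sp1.
Tgfb1: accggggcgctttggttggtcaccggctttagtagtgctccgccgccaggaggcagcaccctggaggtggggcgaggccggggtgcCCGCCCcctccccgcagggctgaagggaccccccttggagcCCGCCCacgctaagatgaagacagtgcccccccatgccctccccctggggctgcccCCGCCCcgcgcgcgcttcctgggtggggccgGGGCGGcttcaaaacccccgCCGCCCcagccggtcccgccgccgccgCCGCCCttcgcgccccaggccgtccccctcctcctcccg
Tgfb2: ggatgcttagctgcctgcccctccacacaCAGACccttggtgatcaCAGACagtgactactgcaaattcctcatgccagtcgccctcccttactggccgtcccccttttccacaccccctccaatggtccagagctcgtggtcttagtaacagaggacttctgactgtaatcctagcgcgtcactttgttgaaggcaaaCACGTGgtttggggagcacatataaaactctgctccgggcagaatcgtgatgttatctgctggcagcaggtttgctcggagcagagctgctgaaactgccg
Tgfbr2: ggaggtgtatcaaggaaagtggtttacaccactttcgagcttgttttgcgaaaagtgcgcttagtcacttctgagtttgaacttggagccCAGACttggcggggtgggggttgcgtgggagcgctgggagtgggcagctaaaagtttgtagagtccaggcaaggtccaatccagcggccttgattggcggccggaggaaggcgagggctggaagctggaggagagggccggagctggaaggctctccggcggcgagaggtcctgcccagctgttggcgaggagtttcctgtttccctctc
The Tgfb1 promoter held 6 GC boxes and 0 of the other motifs, with a GC content of 77% against a median of 52.7% over all promoters. The Tgfb2 promoter held 2 Smad boxes and 1 E-box, and the Tgfbr2 promoter 1 Smad box. Of 32851 promoters of the same length, 49.6% held a Smad box, 0.213% the palindromic element, 7.81% the AP-1 motif, 7.15% the E-box and 35.7% a GC box. No match of 2 motifs overlapped in these windows, and the matches describe letters only.

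Tgfb1, the main TGF-beta of lymphoid and myeloid cells, was lower with ADR in 4 of 5 lymphomas and higher in lymphoma_4936. Its signal was 7.80, 8.03, 8.28, 8.91 and 8.26 in ADR cells, against 8.16, 8.47, 8.54, 9.07 and 7.50 in untreated cells. Untreated lymphoma_4936 had the lowest Tgfb1 signal of the 10 arrays, and its ADR array lay inside the range of the other lymphomas. The changes were -0.36, -0.44, -0.26, -0.15 and 0.76, with a mean of -0.09 ± 0.49 (SD, n = 5; 95% interval -0.53 to 0.35) and a limma adjusted p of 0.896. Leaving out 1 lymphoma gave a mean between -0.0035 without lymphoma_7890 and -0.30 without lymphoma_4936 (adjusted p = 0.373), with -0.022 without lymphoma_5783 and -0.047 without lymphoma_9250. The second Tgfb1 probe set was below the table median on all 10 arrays. At 1 probe set per gene, the macrophage markers had mean changes of 0.23, 0.17, -0.12, 0.68 and 0.06 in the same lymphomas. Untested markers are included, and the part of these markers in the Tgfb1 values was not tested.

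Tgfb2, a ligand better known from epithelial and mesenchymal cells, separated the lymphomas more than the treatment did. Its signal was 3.46, 5.59, 5.56, 2.52 and 4.32 in ADR cells, against 3.32, 5.72, 5.30, 3.35 and 5.87 in untreated cells. Lymphoma_5783 and lymphoma_1032 stayed below the table median on all arrays, and lymphoma_7890 and lymphoma_9250 above it in both conditions. The changes were 0.15, -0.12, 0.26, -0.83 and -1.55, with a mean of -0.42 ± 0.76 (SD, n = 5; 95% interval -1.05 to 0.21; limma adjusted p = 0.653). In lymphoma_4936 the ADR signal was below the table median, so the size of the difference there is uncertain, and without that lymphoma the mean change was -0.13. The spread of Tgfb2 between lymphomas, an SD of 1.25 of the pair means, exceeded that of 96.0% of tested genes. The fibroblast markers were highest in lymphoma_5783 and lymphoma_1032, where Tgfb2 was lowest.

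The 4 probe sets of Tgfb2 gave similar orders of the arrays, with a Pearson r of 0.98, 0.93 and 0.87 between the brightest and the others over the 10 arrays, given as a description because arrays of a lymphoma are not independent. The difference in lymphoma_4936 was -1.55, -1.44 and -1.33 in the 3 brightest, and 0.00 in the dimmest; all 4 were below the table median on the ADR array there. Tested on its own, the second brightest probe set was lower in 5 of 5 lymphomas, by 0.01 in lymphoma_5783 and by 1.44 in lymphoma_4936, and had a mean change of -0.53 with an unadjusted p of 0.0399 and an adjusted p of 0.596 over 20098 probe sets in limma; it was 1 of 19 member probe sets below 0.05 unadjusted, where 8.29% of all tested probe sets were, and 0 of 19 passed the adjusted threshold, where 0% did.

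Tgfb3, the third ligand, gave signals under the table median on most arrays. Its signal was 5.09, 3.77, 3.67, 4.02 and 6.40 in ADR cells, against 4.12, 3.65, 3.79, 4.56 and 5.84 in untreated cells. Lymphoma_4936 was the highest in both conditions, and lymphoma_7890 and lymphoma_9250 stayed under the table median. The changes were 0.98, 0.11, -0.11, -0.54 and 0.56, with a mean of 0.20 ± 0.59 (SD, n = 5) and no limma test. In lymphoma_4936 Tgfb1 and Tgfb3 were therefore higher and Tgfb2 lower with ADR.

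Tgfbr1, the type I receptor kinase (ALK5), was higher with ADR in 3 lymphomas and lower in lymphoma_1032 and lymphoma_4936. Its signal was 8.43, 9.07, 8.17, 7.20 and 8.09 in ADR cells, against 8.02, 8.84, 7.80, 7.41 and 8.46 in untreated cells. Lymphoma_7890 was the highest and lymphoma_1032 the lowest in both conditions. The changes were 0.41, 0.23, 0.37, -0.22 and -0.38, with a mean of 0.08 ± 0.36 (SD, n = 5; 95% interval -0.28 to 0.44; limma adjusted p = 0.882). Leaving out 1 lymphoma gave a mean between 0.00096 without lymphoma_5783 and 0.20 without lymphoma_4936, with 0.0096 without lymphoma_9250, 0.045 without lymphoma_7890 and 0.16 without lymphoma_1032. The gene's other 2 probe sets were below the table median on all 10 arrays and their changes had the sign of the brightest in 1 and 4 of 5 lymphomas.

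Tgfbr2, the ligand-binding type II receptor, had the most positive mean change of the 9 tested members. Its signal was 10.63, 9.64, 9.76, 9.54 and 9.42 in ADR cells, against 9.93, 8.90, 9.41, 9.48 and 9.74 in untreated cells. It was higher with ADR in 4 of 5 lymphomas and lower in lymphoma_4936. The changes were 0.71, 0.74, 0.35, 0.05 and -0.32, with a mean of 0.31 ± 0.45 (SD, n = 5), or 1.24-fold with a 95% interval of 0.927 to 1.65-fold, and a limma adjusted p of 0.63. Leaving out 1 lymphoma gave a mean between 0.20 without lymphoma_7890 and 0.46 without lymphoma_4936 (adjusted p = 0.33), and averaging the gene's probe sets gave 0.092.

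The second brightest probe set of Tgfbr2 did not follow the brightest. It read 6.51, 6.76, 6.76, 5.55 and 6.78 in ADR cells, against 7.17, 5.84, 6.38, 7.25 and 6.76 in untreated cells. Its changes of -0.65, 0.93, 0.38, -1.70 and 0.02 had the sign of the brighter set's in lymphoma_7890 and lymphoma_9250 and had the opposite sign in lymphoma_5783 and lymphoma_4936, and in lymphoma_1032 it was lower by 1.70 where the brighter set had a change of 0.05. Its mean change was -0.21 ± 1.01 (SD, n = 5; limma adjusted p = 0.877), and the direction of Tgfbr2 therefore depended on the probe set. The remaining probe set lay between 2.0 and 2.55 on all arrays.

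**Figure D2:**
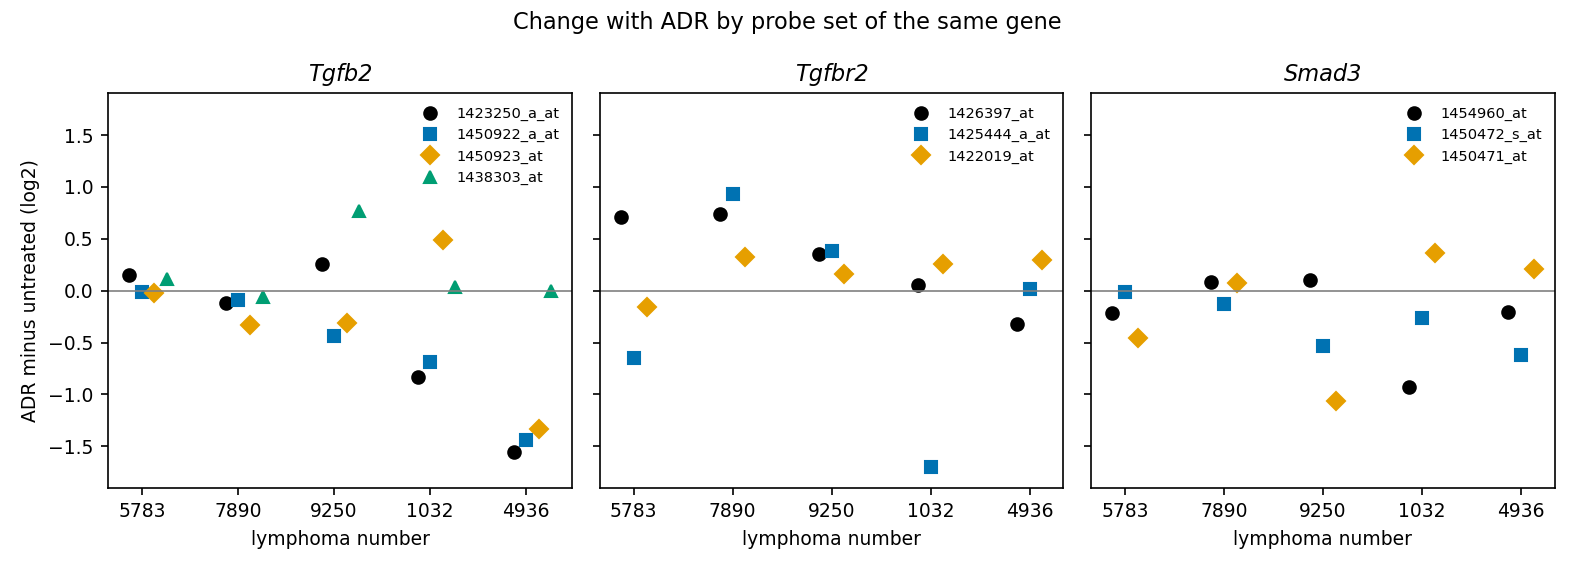
Change with ADR (y axis, ADR minus untreated, log2) in each of the 5 lymphomas (x axis) for every probe set of Tgfb2, Tgfbr2 and Smad3, with 1 marker shape per probe set, brightest first in each legend. The 3 brightest Tgfb2 probe sets lie together at -1.55 to -1.33 in lymphoma_4936, whereas those of Tgfbr2 lie apart in lymphoma_5783 and lymphoma_1032.

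The ligand Tgfb1 and the receptor Tgfbr2 had changes of opposite sign in 5 of 5 lymphomas. In lymphoma_5783, for example, Tgfb1 had a change of -0.36 and Tgfbr2 of 0.71, and in lymphoma_4936 they had 0.76 and -0.32. Of all tested genes other than Tgfb1, 13.5% had the sign pattern of Tgfb1 or its mirror image, so that such a pattern was not particular to this pair. With the second Tgfbr2 probe set the opposition was absent in lymphoma_5783, lymphoma_1032 and lymphoma_4936.

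Smad2, a receptor-regulated Smad, was close to even in 4 lymphomas and higher with ADR in lymphoma_1032. Its signal was 8.16, 7.67, 7.59, 7.26 and 7.81 in ADR cells, against 7.99, 7.83, 7.77, 6.76 and 7.83 in untreated cells. Lymphoma_1032 was the lowest in both conditions. The changes were 0.16, -0.16, -0.18, 0.50 and -0.03, with a mean of 0.06 ± 0.28 (SD, n = 5; 95% interval -0.26 to 0.37; limma adjusted p = 0.909). The second Smad2 probe set had changes of -0.09, -0.04, 0.13, -0.86 and -0.48 and a mean of -0.27 (adjusted p = 0.667), with the sign of the brightest in 2 of 5 lymphomas.

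Smad3, the other receptor-regulated Smad and the one that binds DNA directly, was set apart by lymphoma_1032. Its signal was 8.37, 8.06, 8.09, 7.0 and 8.07 in ADR cells, against 8.59, 7.98, 7.99, 7.93 and 8.28 in untreated cells. The ADR array of lymphoma_1032 lay more than 1 log2 unit under the others, while its untreated array did not stand apart. The changes were -0.22, 0.08, 0.10, -0.93 and -0.21, with a mean of -0.24 ± 0.42 (SD, n = 5; limma adjusted p = 0.681), which was -0.064 without lymphoma_1032. The second brightest probe set was lower in 5 of 5 lymphomas, with a mean change of -0.31 (limma adjusted p = 0.606) and -0.26 in lymphoma_1032, and the third had a mean of -0.18 and 0.36 in lymphoma_1032.

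Smad4, the partner shared by all receptor-regulated Smads, was the steadiest member. Its signal was 9.54, 9.57, 9.67, 9.15 and 9.74 in ADR cells, against 9.42, 9.59, 9.66, 9.14 and 9.94 in untreated cells. In 3 of the 5 lymphomas the arrays differed by 0.01, and the changes were 0.13, -0.01, 0.01, 0.01 and -0.20. The mean change was -0.02 ± 0.12 (SD, n = 5), or 0.99-fold with a 95% interval of 0.835 to 1.17-fold (limma adjusted p = 0.974), and only 4.64% of tested genes had a smaller SD of the change. The 2 dimmer Smad4 probe sets differed from it in lymphoma_1032, with changes of -0.42 and -0.58 there and mean changes of -0.11 and -0.10.

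Smad7, the inhibitory Smad that blocks the type I receptor and is itself a TGF-beta target, followed Smad3 at their brightest probe sets. Its signal was 7.52, 7.06, 6.89, 5.87 and 7.03 in ADR cells, against 7.60, 6.87, 7.01, 7.03 and 7.19 in untreated cells. It was lower with ADR in 4 of 5 lymphomas, by far most in lymphoma_1032, where the ADR signal was 0.448 times the untreated one. The changes were -0.08, 0.19, -0.12, -1.16 and -0.16, with a mean of -0.27 ± 0.52 (SD, n = 5; 95% interval -0.73 to 0.19; limma adjusted p = 0.686), which was -0.043 without lymphoma_1032. The second probe set had a mean change of 0.036 and a change of -0.17 in lymphoma_1032.

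Skil, the SnoN co-repressor that holds Smad complexes inactive and is induced by them, differed between lymphomas far more than with ADR. Its signal was 9.01, 9.10, 8.14, 9.34 and 10.39 in ADR cells, against 9.09, 8.69, 8.31, 9.12 and 10.53 in untreated cells. Lymphoma_4936 was the highest and lymphoma_9250 the lowest in both conditions. The changes were -0.07, 0.41, -0.18, 0.23 and -0.15, with a mean of 0.05 ± 0.26 (SD, n = 5; 95% interval -0.25 to 0.35; limma adjusted p = 0.925). The SD of the pair means, 0.82, was 3.15 times the SD of the changes, and 91.2% of tested genes spread less between lymphomas. The second probe set was also highest in lymphoma_4936, with 7.19 in ADR cells and 6.86 in untreated cells. Its changes of 0.41, 0.32, -0.97, 0.18 and 0.33 had the sign of the brightest in 3 of 5 lymphomas. Their mean was 0.05 with an SD of 0.58.

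**Figure D3:**
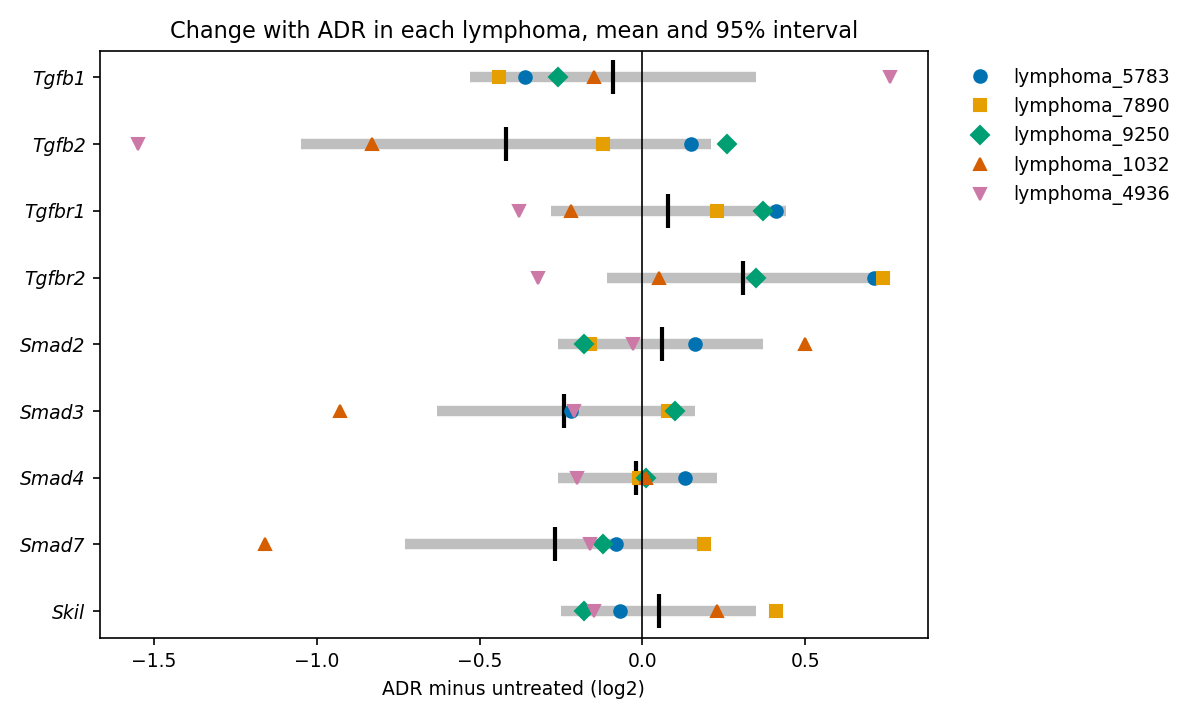
Change with ADR (x axis, ADR minus untreated, log2) of the 9 tested genes, with 1 marker per lymphoma, a vertical tick at the mean and a grey bar for the 95% interval of the paired limma fit. All 9 bars include 0, and the 3 points farthest from 0 are lymphoma_4936 for Tgfb2 (-1.55) and lymphoma_1032 for Smad7 (-1.16) and Smad3 (-0.93).

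By lymphoma, the median change over the 9 members was 0.13, 0.08, 0.01, -0.15 and -0.20. In lymphoma_4936, 8 of 9 members were lower with ADR at their brightest probe set and Tgfb1 alone was higher, while the median over all genes tested was 0.06 there. Of 19 tested member probe sets, 14 were lower and 5 higher there, where 47.3% of all tested probe sets were lower. The tested dimmer probe sets that were higher in this lymphoma were of Tgfbr2, Smad3, Smad4 and Skil, with changes of 0.02, 0.21, 0.05 and 0.33. The other dimmer probe sets of Smad3 and Smad4 had -0.62 and -0.37. In lymphoma_1032, 5 of 9 were lower, beside a median over all genes of -0.17. The other 3 lymphomas each had 5 members higher and 4 lower.

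Among all 11472 tested genes, the one most like Smad3 over the 10 arrays was Smad7, and the one most like Smad7 was Smad3 (Pearson r = 0.978). After the mean of each lymphoma was removed, r between Smad3 and Smad7 was 0.96. That value includes lymphoma_1032, which had by far the largest changes, -0.93 and -1.16. Over the 8 arrays other than those of lymphoma_1032, r of the signals was 0.94, with the lymphoma means left in. Whether the changes correlate without lymphoma_1032 was not tested. The dimmer Smad3 probe sets had r of 0.53 and -0.4 with the brightest over the 10 arrays, and the dimmer Smad7 set had 0.68. There were 54 genes with r above 0.9 to Smad3 and 28 to Smad7. The genes most like the other members were Nmt1 for Tgfb1 (r = 0.981), Zcchc14 for Tgfb2 (0.961), Rab11b for Tgfbr1 (0.95), Inka2 for Tgfbr2 (0.915), Cdadc1 for Smad2 (0.974), Eif3a for Smad4 (0.993) and Cdk17 for Skil (0.964). These correlations describe 10 arrays that come in 5 pairs, and the top gene of so many is high by selection.

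**Figure D4:**
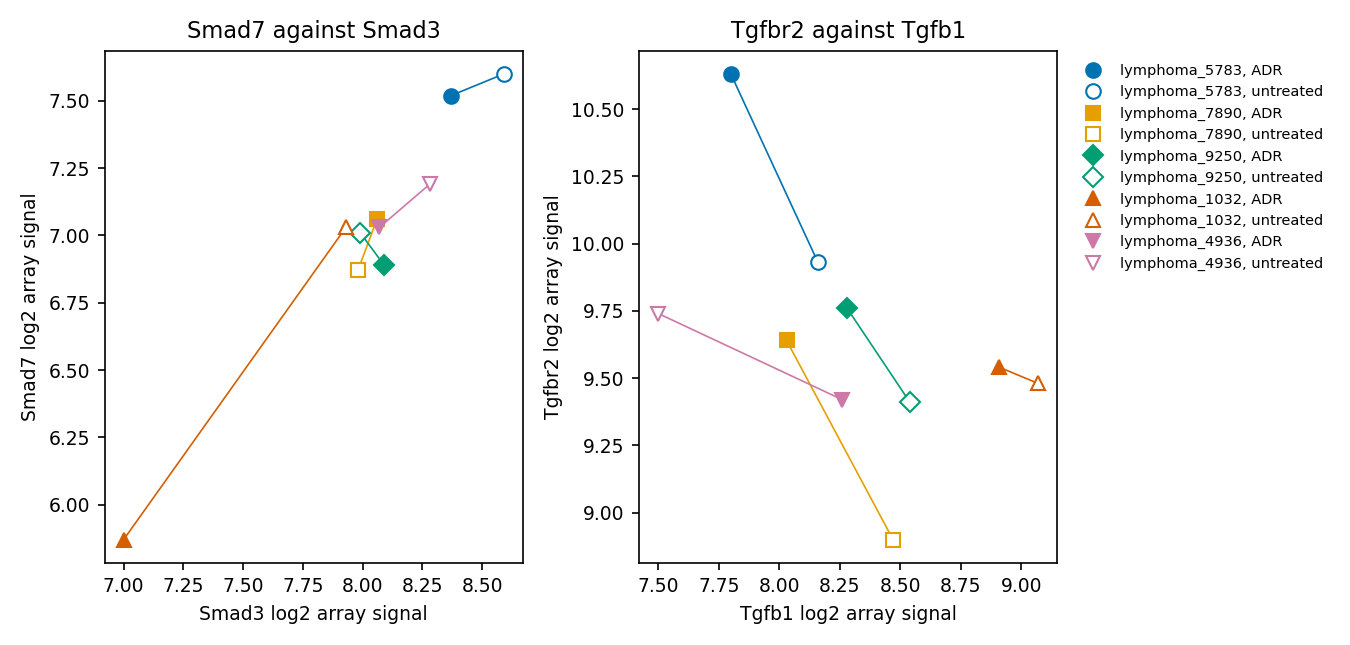
Log2 array signals of Smad7 against Smad3 and of Tgfbr2 against Tgfb1 on the 10 arrays, at the brightest probe set of each gene. Filled markers are ADR, open markers untreated, and lines join the arrays of a lymphoma. Smad3 and Smad7 are high and low together apart from the short line of lymphoma_9250, and their lowest point is the ADR array of lymphoma_1032 (7.0 and 5.87), while each Tgfb1 and Tgfbr2 line slopes downward.

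The rest of the pathway was read from 7 lists with 105 further genes, of which 100 had a probe set and 74 were tested. Of these 74, 0 passed the threshold, 37 were higher and 37 lower with ADR, and the median change was 0.01, beside -0.024 over all genes. At an unadjusted p below 0.05 there were 6 (8.11%, where 8.48% of all tested genes were), and 7 had 1 sign in all 5 lymphomas (9.46%, where 9.49% were). Both pooled shares are near those of all genes, while 5 of the 19 tested Smad target genes, described below, were under that unadjusted p.

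Among the other ligands of the superfamily, 2 of 5 tested were higher, with a median change of -0.02. Inhba, the activin A subunit, was higher in 5 of 5 lymphomas, with a mean change of 0.34 ± 0.26 (SD, n = 5; limma adjusted p = 0.565) and changes of 0.67, 0.04, 0.33, 0.53 and 0.14. Genes of ligand activation and antagonists were higher for 6 of 9 tested, with a median of 0.07, and Thbs1, an activator of latent TGF-beta, had changes of 0.73, 0.41, -1.38, 2.65 and 0.40. Other receptors were higher for 5 of 10 tested, with a median of 0.02. Of the other Smads, Smad5 alone was tested, at 0.10 ± 0.54 (adjusted p = 0.899). Smad regulators were higher for 12 of 21 tested, with a median of 0.04 and mean changes between -0.17 and 0.24; Nedd4l, a ubiquitin ligase of Smads, was lower in 5 of 5 lymphomas, by 0.17 ± 0.14 on average (adjusted p = 0.653). Of non-canonical signalling genes 4 of 11 were higher, with a median of -0.08; Map3k7, the kinase TAK1, was higher in 5 of 5 lymphomas, at 0.32 ± 0.37 (adjusted p = 0.587), and Rock1 lower in 5 of 5, at -0.12 ± 0.15 (adjusted p = 0.753).

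Known Smad target genes had 7 of 19 tested higher and 12 lower, 0 past the threshold, and a median change of -0.10. At an unadjusted limma p below 0.05 there were 5 of 19, where 8.48% of all tested genes were. These were Cdkn1a, higher on average, and Col1a1, Id3, Bambi and Bhlhe40, lower on average. Whether the list differs from all genes was not tested. That median was -0.28 under a stricter filter on low signals, -0.24 without lymphoma_7890, -0.15 without lymphoma_9250 and -0.20 when probe sets were averaged. It was -0.079 after quantile normalization, -0.091 without the filter on low signals, -0.09 without lymphoma_1032, -0.096 without lymphoma_4936 and -0.12 without lymphoma_5783. Centring left it at -0.10. By smallest p with 1 sign in all lymphomas, Col1a1, a collagen gene also in the fibroblast list, had a mean change of -0.43 ± 0.13 (SD, n = 5; limma adjusted p = 0.565) and Cdkn1a, the p21 gene that p53 drives as well, of 0.60 ± 0.43 (adjusted p = 0.565). The low Col1a1 signals averaged 4.70 in ADR cells and 5.13 in untreated cells. Chosen after their values were seen, Bambi, a decoy receptor of the pathway, had changes of -2.33, -0.82, -0.88, -0.88 and 0.37, and Id3, an inhibitor of helix-loop-helix factors that answers to Smads of the BMP branch, had -0.55, -1.58, -1.23, -0.42 and 0.30. Their mean changes were -0.91 ± 0.96 and -0.70 ± 0.73 (adjusted p = 0.565 for each). Both had the sign of the Tgfb1 change in all 5 lymphomas, a pattern that with its mirror image 13.5% of tested genes showed.

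**Figure D5:**
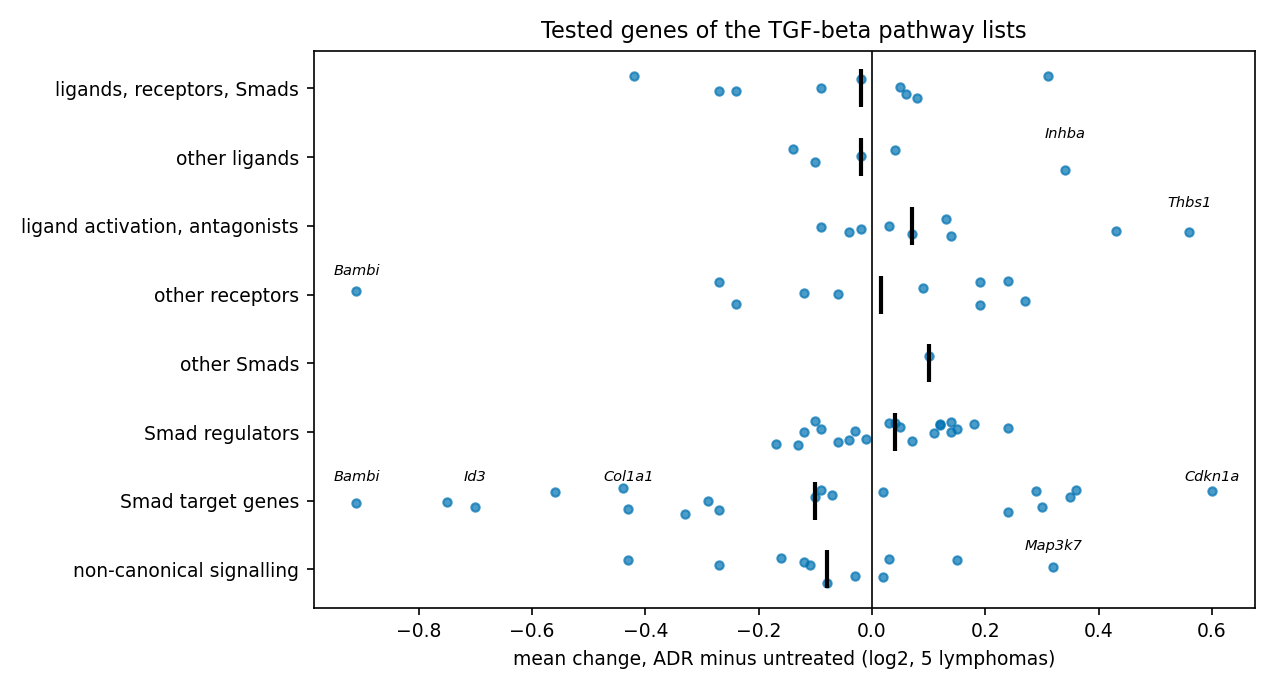
Mean change with ADR over 5 lymphomas (x axis, ADR minus untreated, log2) of the tested genes in each list, with 1 point per gene and a vertical tick at the list's median; the vertical position within a list is random. List medians lie between -0.10 for Smad target genes and 0.10 for the single tested gene of the other Smads, and Bambi, at -0.91, is in 2 lists.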

How the data were processed

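Total RNA of 10 cultures was measured on Affymetrix mouse arrays. The authors deposited 1 table of log2 signals of probe sets. RMA (a background correction, normalization and summary of probes) and Partek are the tools in the submitters' processing notes; no version, setting or log base is given there, and log2 was read from the range of values. No further normalization was applied. Of 45101 probe sets, 34945 were annotated with 1 single symbol, and gene IDs of 34741 of these were found in the RefSeq table (GRCm38.p6).

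The brightest probe set on average stood for a gene. Changes were fitted over 11472 genes with limma 3.58.1 (R 4.3.3) by lmFit and eBayes, two-sided, in a model that blocks on lymphoma, with Benjamini-Hochberg adjustment over all genes tested and a threshold of 0.05. The design text names matched pairs, and deviations from the group means correlated between 0.51 and 0.79 within lymphomas and at most 0.22 between them. The code of the fit was checked on simulated data with known added changes and independent noise. How often it called changes as small as those of the members is not given here. Single values had exact sign-flip permutation tests in Python 3.11.15. The members and lists were chosen with earlier results of these data known. Named were all 10 members; per pathway list, up to 2 genes of smallest p with 1 sign in all lymphomas, as none passed; and the most correlated gene per member. Thbs1, Bambi and Id3 were named after their values were seen. Suv39h1 was not analysed here. With 5 arrays per group, precision is limited by their number. Alternatives were no block, 2 other filters, the mean of all probe sets, each probe set alone, quantile normalization, centring, array weights, a trended prior, and fits that omit 1 lymphoma.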

Additional observations from a re-analysis of the deposited data

Results flagged for a closer look

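In 3 of 20 groups of 5 signals, 1 sample lay far from the rest by Dixon's ratio, which by chance happens in about 1 in 20 groups. Tgfbr2 had its highest ADR signal, 10.63, in lymphoma_5783, and the next highest was 9.76 (ratio 0.717). At 1 probe set per gene, untested genes included, the mean changes of the fibroblast and macrophage markers in that lymphoma were 0.63 and 0.23. The macrophage mean joined opposite changes, such as 2.10 for Lyz2 and 2.60 for Fcgr1 against -2.94 for Mrc1 and -2.91 for C1qa. The megakaryocyte and platelet markers had a mean change of -0.83, with -3.61 for Pf4 and 0.86 for Ppbp, which was below the table median on all arrays. The part of other cells in the Tgfbr2 value was not tested.

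Smad2 had its lowest untreated signal, 6.76, in lymphoma_1032, next to 7.77 (ratio 0.821). Smad3 had its lowest ADR signal, 7.0, in lymphoma_1032, next to 8.06 (ratio 0.77). The ADR array of lymphoma_1032 had a low median signal of 4.15 over all probe sets and one of 7.16 over the tested genes, where the other arrays had 7.16 to 7.35; whether this bears on the Smad3 value was not tested, and after quantile normalization the mean change of Smad3 was -0.21.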

How the results depend on the processing

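In every alternative 0 members and 0 genes passed the threshold, with smallest adjusted p of 0.33 for a member and 0.153 for any gene. The fit without the replicate block also called 0 genes and 0 members (smallest adjusted p = 0.9999), and the block changed no call. Genes at an unadjusted p below 0.05 numbered 973 as reported, 262 without the block, 551 without lymphoma_5783 and 1446 without lymphoma_4936. Of 126 alternative values of member changes, 9 had the opposite direction, all of uncalled changes. Smad2 was at -0.10 when its probe sets were averaged, -0.022 under array weights and -0.27 by its second probe set. Tgfbr1 was at -0.076 when its probe sets were averaged, Tgfbr2 at -0.21 and Smad7 at 0.036 by their second probe sets. Leaving out each lymphoma gave -0.043 to 0.11 for Skil, -0.053 to 0.12 for Smad2 and -0.05 to 0.032 for Smad4. Tgfb2 could not be tested under the stricter filter. Of 69 alternative list medians, 0 moved by more than the spread between lymphomas. The medians of the other ligands, other receptors, other Smads and Smad regulators took either sign over these alternatives. Signals below the table median, as for Tgfb3 and part of Tgfb2, are the least certain.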

Other observations

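Some genes of the lists outside the test had few arrays with a signal above the table median, and their values are given without a test. Ccn2, the connective tissue growth factor gene and a Smad target, averaged 5.01 in ADR cells and 3.83 in untreated cells, with changes of 3.22, -0.81, 0.67, 1.45 and 1.37 in the order of lymphomas used above; it is also on the fibroblast list. Smad1, of the BMP branch, averaged 5.25 in ADR cells and 4.61 in untreated cells, with changes of 0.88, 0.68, -0.82, 2.28 and 0.16. Ldlrad4, a Smad target that restrains the pathway, averaged 4.2 in ADR cells and 4.96 in untreated cells, with changes of -1.65, 0.51, 0.10, -2.21 and -0.55. All 3 were picked with their values in view.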
